A study of Homo sapiens with 39 samples.

Results

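The genes described here are 38 interferon-stimulated genes, chosen by name from a list and read from a table of 60671 genes. All 38 were found in it. They were followed through 39 RNA-seq libraries of A375 and WM115, a pair of established human melanoma cell lines in which a regulatory region near the transcription factor gene SOX10 had been deleted. A375 was sampled as wild-type cells (WT, 4 libraries), as clones 1.1 (3 libraries) and 1.2 (4) with region R1 deleted, and as clones 4.1 (4) and 4.2 (3) with region R4 deleted. WM115 was sampled as WT (4 libraries), as clones 1.1 (5) and 1.2 (3) lacking R1 and as clones 4.1 (3) and 4.2 (3) lacking R4. A further WM115 clone, 1.3 (3 libraries), is numbered like the R1 clones while its genotype label names R4, so it is called clone 1.3 only. Each clone is a single cell line, and its libraries repeat that clone, so a difference between a clone and WT may belong to the clone and not to the deletion. No label names an interferon treatment.

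Interferons are secreted proteins that bind receptors on the cell surface. The receptor for type I interferon signals through the kinases JAK1 and TYK2. For type I interferon the activated complex includes STAT2 and IRF9 and binds a short element in the promoters of its target genes, the interferon-stimulated response element. The targets include proteins that block viral entry, replication or release, sensors of foreign nucleic acid, the ubiquitin-like protein ISG15 with its ligases, and the transcription factors that relay the signal. Many cells, tumour lines among them, express part of this set at a low level without added interferon.

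Promoter stretches that hold this element are shown for 8 genes whose values are described below. The core searched was GAAANNGAAA on both strands of the 300 bases from 250 before to 50 after each RefSeq start (GRCh38.p14). Of the 38 genes, 30 had a promoter entry and 21 of those held a match, which is 70.0%, against 4.38% of 27305 genes with an entry. The palindrome TTCNNNGAA, the core of the element bound by STAT dimers, was present for 9 of the 30, 30.0%, against 9.38% of all. Among the genes described below, IRF1, IRF9, OAS1, SAMD9L, XAF1, CMPK2, HERC6 and STAT2 had an entry without a match to the first core. The 8 genes with no entry were IFIT2, IFITM2, MX2, OAS2, OASL, IRF7, USP18 and TRIM22. Each stretch below is 60 bases upstream of the start, 5′ to 3′ on the strand of the gene, with capitals marking the matches to GAAANNGAAA or to its reverse complement.
BST2: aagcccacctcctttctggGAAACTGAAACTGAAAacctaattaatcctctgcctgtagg
ISG15: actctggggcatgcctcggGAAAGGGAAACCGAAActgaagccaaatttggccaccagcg
ISG20: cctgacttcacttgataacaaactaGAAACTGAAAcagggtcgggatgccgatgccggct
PARP9: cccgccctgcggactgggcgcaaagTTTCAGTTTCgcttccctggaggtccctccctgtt
IFI6: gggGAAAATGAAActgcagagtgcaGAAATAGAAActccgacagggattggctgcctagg
IFI44: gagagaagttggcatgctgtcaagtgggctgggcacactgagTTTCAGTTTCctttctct
IFIT1: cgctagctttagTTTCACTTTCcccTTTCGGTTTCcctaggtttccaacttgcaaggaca
HERC5: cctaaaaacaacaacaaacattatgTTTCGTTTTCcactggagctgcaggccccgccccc
The BST2 stretch lies at chr19:17405720-17405779 on the minus strand and holds 2 overlapping matches. The ISG15 stretch, at chr1:1013365-1013424 on the plus strand, also holds 2 overlapping matches. The ISG20 stretch is at chr15:88638922-88638981 (plus), that of PARP9 at chr3:122564307-122564366 (minus), that of IFI6 at chr1:27672251-27672310 (minus) and that of IFI44 at chr1:78649729-78649788 (plus). The IFIT1 stretch is at chr10:89392495-89392554 (plus) and that of HERC5 at chr4:88457020-88457079 (plus). A match describes the letters in the window and was not tested for binding.

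In the genome 21 of the 38 genes stood in 9 clusters in which neighbours lie within 250 kb. These held IFIT1, IFIT2 and IFIT3 on chromosome 10, IFITM1, IFITM2 and IFITM3 on chromosome 11, OAS1, OAS2 and OAS3 on chromosome 12, and MX1 with MX2 on chromosome 21. The others were the pairs IFI44 and IFI44L, CMPK2 and RSAD2, PARP9 and DTX3L, HERC5 and HERC6, and SAMD9 and SAMD9L. The IFITM, IFIT, OAS and SAMD9 genes have close relatives, so the split of reads between relatives depends on the authors' counting.

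Values are TPM, a length-corrected share of all transcripts in a library. SOX10 lay between 381 and 876 TPM in the A375 libraries and between 9.56 and 553 in those of WM115, and met the rule for calls given below in WM115 clone 1.2 alone, where it fell (log2 difference of −2.44, limma adjusted p = 0.0192). Library 1 of A375 clone 1.1 and library 1 of A375 clone 4.2 stood apart in the summed TPM of the 38 genes, with 1755 and 1730.2 against 825 to 957 in the other libraries of these clones. Library 3 of WM115 clone 1.2 held the 9.56 TPM of SOX10 and the highest sum of its clone, 2964 TPM against 1640.1 and 1929. The mitochondrially encoded share of TPM ran from 0.968% to 4.92% in A375 and from 4.71% to 19.4% in WM115. The summed share of ribosomal protein genes was 12.0% to 13.6% in WM115 WT, 11.5% in library 3 of clone 1.3 and 16.2% to 18.6% in every other WM115 clone library, so this share and the clone cannot be told apart. Melanoma marker genes summed to 453 to 2105 TPM in A375 and 40.7 to 3264 in WM115. Fibroblast markers summed to 4.81 to 21.8 TPM in A375 and 374 to 866 in WM115, where all 7 reached 1 TPM, and their part in the results was not tested. Of the 12 immune marker genes, 3 reached 1 TPM in each line, and the 12 together ranged from 27.3 to 171 TPM over the A375 libraries. Over those of WM115 they ranged from 232 to 759 TPM. CD68, a lysosomal protein gene, held most of the sum, with 18.2 to 165 TPM in the former line and 225 to 757 in the latter. ITGAM, an integrin of myeloid cells, ranged from 0.189 to 11 TPM in WM115 WT and from 0.042 to 6.23 in clone 1.3, and was called lower in WM115 clones 1.1, 1.2, 4.1 and 4.2, where it did not exceed 0.104. PTPRC, CD3E and MS4A1 stayed at or below 0.483 TPM in every library. The part of these markers in the results was not tested. In a bulk library fewer cells with a transcript and less of it per cell cannot be told apart.

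In the unedited lines the membrane protein IFITM3, which hinders viral entry, was the most abundant of the set by far. It stood at 1121, 1535, 1105 and 745 TPM in the 4 A375 WT libraries and at 1509.7, 1164, 982 and 1129 in WM115 WT, ranges that overlap. By mean TPM, A375 WT had 3 genes at 100 or more (IFITM3, IFITM2, ISG20), 9 from 10 to under 100, 18 from 1 to under 10 and 8 below 1. WM115 WT had 4 at 100 or more (IFITM3, MX2, IFI6, IFITM2), 15 from 10 to under 100, 12 from 1 to under 10 and 7 below 1. The chemokine CXCL10, the antiviral enzyme RSAD2 and IFI27, OASL and EPSTI1 were below 1 TPM in nearly every library. None of these 5 reached 1 TPM in 3 libraries of a line, the minimum for testing, and the same held for XAF1 in A375 and IFI44L in WM115. So 32 of the 38 were tested in each line. IFI44L entered the A375 test through clone 1.2 alone, the single group in which it reached 1 TPM.

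**Figure D1:**
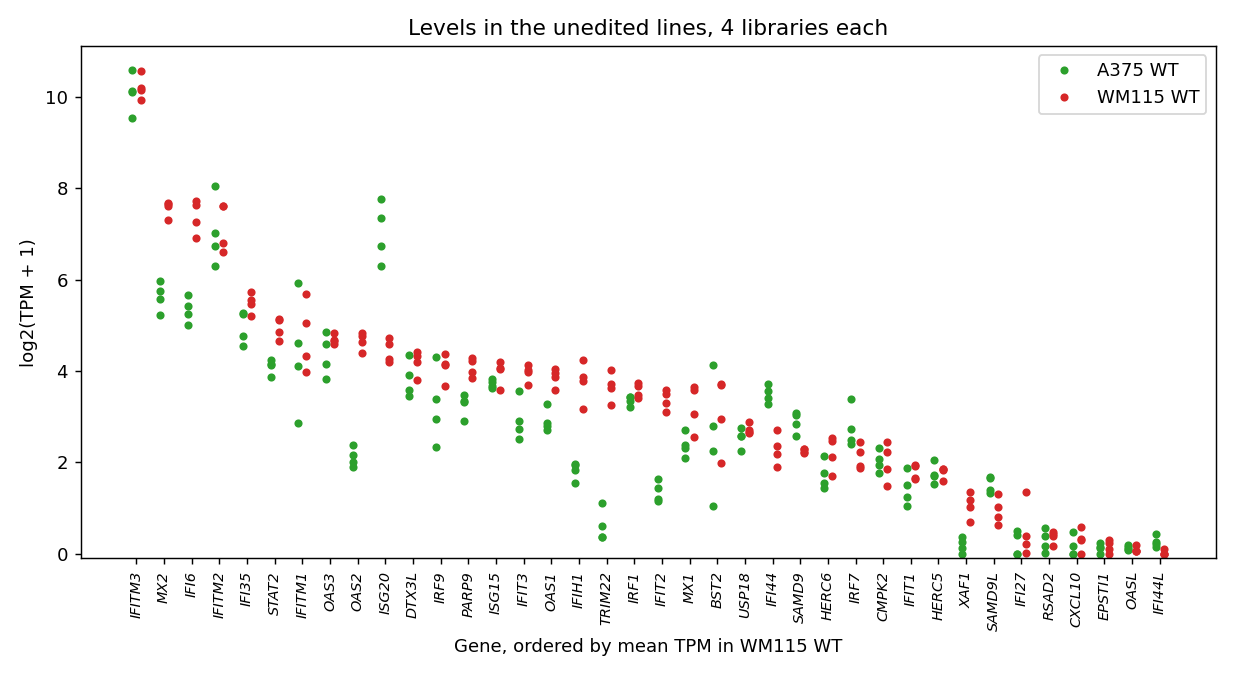
Level of each of the 38 genes in the 4 WT libraries of A375 (green) and of WM115 (red), as log2(TPM + 1) on the vertical axis, ordered by mean TPM in WM115 WT. ISG20 is the gene with the clearest excess in A375, and MX2, IFI6, OAS2, IFIH1, TRIM22 and IFIT2 lie lower there.

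A gene was called where limma's test on log2(TPM + 1) gave a Benjamini-Hochberg adjusted p below 0.05 over all genes tested and a log2 difference of at least 1 in size. Between the unedited lines 9 of 32 genes were called, 28.1%, while 22.7% of all tested genes were. A375 WT was higher in 2 (9.55% of all genes) and lower in 7 (13.1%). ISG20, an exonuclease that degrades RNA, had 161, 106, 217 and 78.3 TPM in A375 WT and 23.3, 25.6, 18.1 and 17.5 in WM115 WT, with no overlap (log2 difference 2.59 ± 0.29 SE, adjusted p = 8.15e-05). IFI44 was the other gene higher in A375 WT, by 1.21. The largest deficit was in TRIM22, a ubiquitin ligase that restricts several viruses, at 0.523, 1.16, 0.283 and 0.296 TPM against 15.2, 11.4, 8.52 and 12.2 (−3.04 ± 0.22, adjusted p = 5.16e-06). OAS2, which makes the 2-5A messenger that activates RNase L, was lower by −2.55, and IFI6 by −2.04. IFIT2, an RNA-binding protein, differed by −2.01, the GTPase gene MX2 by −1.93, the RNA sensor gene IFIH1 by −1.93 and IFIT3 by −1.02. IFIT3 fell short of the minimum difference with median-of-ratios scaling (−0.96) and without A375 WT library 1 or 2 or WM115 WT library 1 or 4 (−0.88 to −1.0). These 7 were lower in all 4 A375 libraries than in every WM115 WT library. They were picked as called lower in the same libraries, so their separation adds no support. The share of all genes separated in this way was not computed. The lines also differ in mitochondrial share, 1.21% to 4.92% against 13.7% to 15.6%, and the part of that share cannot be told apart from the line.

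WM115 clone 1.1 held the largest number of calls against WT among the 9 clones. Here 9 of 32 genes fell and none rose, 28.1%, while 4.88% of all tested genes were called and 3.66% were lower. The genes that fell were TRIM22, BST2, MX1, IFITM1, IFI44, ISG20, IFI6, XAF1 and PARP9. The median log2 difference of the 32 was −0.69, against −0.12 for all genes. At an adjusted p below 0.05 without a minimum difference, 21 of the 32 were called, against 22% of all genes. In 19 genes all 5 clone libraries lay below all 4 WT libraries, and 16.5% of all genes did so. In none were all above, where 7.05% of all genes were.

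TRIM22 in WM115 clone 1.1 stood at 1.26, 1.34, 1.60, 1.51 and 2.17 TPM, against 15.2, 11.4, 8.52 and 12.2 in WT. No clone library came near a WT library, and the log2 difference was −2.30 ± 0.23 SE (limma adjusted p = 2.47e-06). BST2, the tethering protein that holds budding virus on the cell surface, had 2.60, 2.82, 0.926, 1.22 and 1.21 TPM in the clone and 12.0, 6.71, 2.97 and 12.1 in WT (−1.69 ± 0.49, adjusted p = 0.0193). The lowest WT library of BST2 lay just above the highest clone library, and the call was lost without WT library 1 (−1.48, adjusted p = 0.0707) or 4 (−1.48, adjusted p = 0.0662). MX1, a dynamin-like GTPase that blocks viral ribonucleoproteins, had 3.02, 2.03, 1.84, 1.80 and 1.91 TPM against 11, 7.40, 4.87 and 11.6 (−1.59 ± 0.27, adjusted p = 0.000463). Its groups did not overlap.

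IFITM1, which hinders entry at the plasma membrane, ranged from 6.37 to 13.0 TPM in WM115 clone 1.1 and from 14.7 to 50.8 in WT (−1.48 ± 0.45, limma adjusted p = 0.0245). Its call was lost without clone library 3 (−1.38, adjusted p = 0.0587), WT library 1 (−1.17, adjusted p = 0.103) or WT library 4 (−1.38, adjusted p = 0.0674). IFI44, an intracellular protein induced by interferon, ranged from 0.837 to 1.5 TPM against 2.75 to 5.50 (−1.18). ISG20 ranged from 6.42 to 12.1 TPM against 17.5 to 25.6 (−1.13). IFI6, a small membrane protein that limits apoptosis and among the most abundant of the set in this line, ranged from 69.5 to 85.2 TPM against 119 to 211 (−1.12). PARP9, an ADP-ribosyltransferase that works with the ligase DTX3L, ranged from 6.46 to 8.25 TPM against 13.5 to 18.4 (−1.02, adjusted p = 0.000249). It fell short of the minimum difference, at −0.95 to −0.98, without clone library 3 or 4 or WT library 1 or 2. With median-of-ratios scaling PARP9 (−0.89), ISG20 (−1.0) and IFI6 (−0.98) all fell short of it, and 6 genes were called in place of 9. XAF1, a pro-apoptotic protein gene, was listed at 0 in all 5 clone libraries and at 1.54, 1.03, 0.629 and 1.27 TPM in WT (adjusted p = 0.0226). The call of XAF1 was lost without WT library 1 (adjusted p = 0.0721) or 4 (adjusted p = 0.0570). In all 6 genes of this paragraph the groups were separate, the clone lying below WT.

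Not every gene of the set moved this way in WM115 clone 1.1. IFIT1, IFIT2, IFIT3 and IFITM2 were the 4 of 32 with a difference above 0. IFIT3 stood at 15.5 to 24.9 TPM against 11.9 to 16.4 in WT, a difference of 0.49 ± 0.19 that did not pass (limma adjusted p = 0.0684). IFIT1 differed by 0.05, with a 95% interval from −0.54 to 0.64, and IFITM3 by −0.10, with an interval from −0.53 to 0.33. ISG15, at 5.82 to 7.87 TPM against 11 to 17.5, missed the minimum difference narrowly (−0.96, adjusted p = 0.000786), as did DTX3L (−0.85) and OAS2 (−0.83). Without WT library 1 the number called was 5 in place of 9. Within the libraries of over 7.5% mitochondrial share, 2 of clone 1.1 and all 4 of WT, it was also 5, with a median of −0.74, an alternative chosen after the data were seen.

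WM115 clone 1.2 had 4 of 32 genes called, 3 higher and 1 lower, or 12.5% against 7.61% of all genes (4.49% higher and 3.11% lower). The median of the 32 was −0.02, equal to that of all genes. IRF1, a transcription factor induced by interferon, rose from 11.7, 12.3, 9.71 and 10.2 TPM in WT to 42.9, 19.5 and 53.1 (log2 difference 1.61 ± 0.29, limma adjusted p = 0.00149). SAMD9L, an antiviral protein that restrains translation, rose from 1.03, 0.541, 0.759 and 1.48 TPM to 4.54, 1.99 and 6.46 (1.37 ± 0.24, adjusted p = 0.00122). All 3 clone libraries exceeded WT in both. They did so in 5 genes and lay below WT in 6, where 15.2% and 13.2% of all genes did. IFIT1, which binds foreign RNA ends, had 5.07, 3.88 and 14.1 TPM against 2.14, 2.79, 2.83 and 2.17 (1.14 ± 0.32, adjusted p = 0.0172). The 14.1 came from library 3, which stands apart, and without it the difference was 0.65 with an adjusted p of 0.170, while IRF1, SAMD9L and IFITM2 were still called. EPSTI1, not tested, reached 0.59 to 2.34 TPM in this clone and at most 0.632 in any other WM115 library.

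IFITM2, which shares the locus of IFITM1 and IFITM3 on chromosome 11 and hinders entry from endosomes, was lower in several WM115 clones. In WT it stood at 195, 110.2, 95.7 and 194 TPM. In clone 1.2 it stood at 16.4, 28.9 and 41.6 TPM (log2 difference −2.34 ± 0.32, limma adjusted p = 0.000174), and in clone 1.3 at 7.73, 11.1 and 20.3 (−3.44 ± 0.32, adjusted p = 4.20e-06). Clone 4.2, with 77.9, 47.0 and 55.7 TPM, was also called (−1.25 ± 0.32, adjusted p = 0.0114), a call lost without its library 2 (−1.09, adjusted p = 0.0663). These 3 clones lay wholly below WT. Clone 4.1 overlapped WT at 73.7, 92.5 and 119.5 TPM (−0.59), and so did clone 1.1 at 127 to 168 (0.04).

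IFITM3 was called in no WM115 clone. IFITM1 was called in clone 1.1 alone, and stood at 19.5, 19.1 and 82.9 TPM in clone 1.2, at 5.78, 18.2 and 15.3 in clone 1.3 and at 22.3, 14.8 and 5.78 in clone 4.2, beside 14.7 to 50.8 in WT. These clones overlapped WT in IFITM1, with differences of 0.26, −1.08 and −1.0. IFITM3 ranged from 1034 to 2164 TPM in clone 1.2 and from 1182 to 1373 in clone 1.3, beside 982 to 1509.7 in WT. As a share of IFITM3, IFITM2 was 9.47% to 17.1% in WM115 WT, 1.58% to 2.13% in clone 1.2 and 0.654% to 1.48% in clone 1.3. It was 3.88% to 5.67% in clone 4.1, 3.93% to 4.64% in clone 4.2 and 11.1% to 15.8% in clone 1.1. In A375 the share was 8.62% or more in every library. The 53 other tested genes within 1 Mb of IFITM2 had a median difference of 0.02 in clone 1.2 and 0.17 in clone 1.3. The transcript IFITM2-202 carried 92.4% of the gene's TPM in WT, 92.9% in clone 1.2 and 87.6% in clone 1.3. IFITM2 and IFITM3 are close in sequence, and the part of read assignment was not tested.

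IFITM2 was the single gene called in WM115 clone 1.3, 1 of 32 or 3.12%, against 0.618% of all genes (0.194% lower). The median of the 32 was −0.08 and that of all genes −0.03. IFITM1 differed by −1.08 there and did not pass (limma adjusted p = 0.381). SAMD9 was above WT in all 3 libraries and IFITM2 and OAS3 below it in all 3, where 4.42% of all genes were above and 7.08% below. Library 3 of this clone had the highest mitochondrial share, 19.4%, and without it IFITM2 differed by −3.79.

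**Figure D2:**
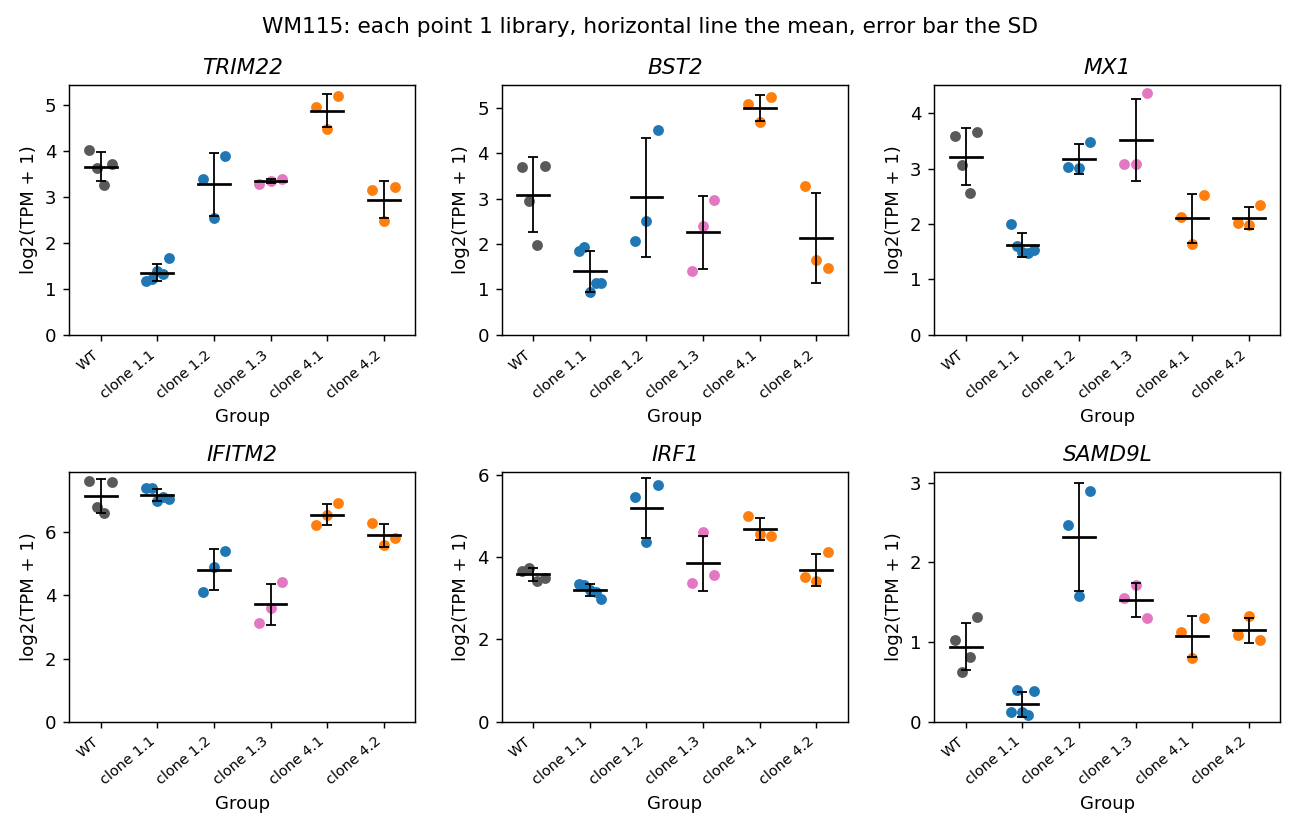
Levels of 6 genes in the WM115 libraries, as log2(TPM + 1) on the vertical axis, by group on the horizontal axis (WT grey, clones 1.1 and 1.2 blue, clone 1.3 pink, R4 clones orange). Points are libraries, horizontal lines means and error bars the SD; TRIM22 and BST2 lie below WT in clone 1.1 and above it in clone 4.1, and IFITM2 is lowest in clones 1.2 and 1.3.

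In WM115 clone 4.1 genes of the set moved both ways. There 4 rose and 2 fell, 18.8% of the 32, against 7.57% of all genes (3.2% higher and 4.37% lower). With median-of-ratios scaling the split was 4 higher and 0 lower, the differences of MX1 (−0.99) and IFI44 (−0.93) falling short of the minimum. BST2 rose to 32.9, 24.6 and 36.6 TPM from 12.0, 6.71, 2.97 and 12.1 in WT (log2 difference 1.91 ± 0.56, limma adjusted p = 0.0189). Without clone library 1 or 3 or WT library 3 its adjusted p was 0.0517 to 0.0626. TRIM22 rose to 29.8, 21.3 and 35.4 TPM from 15.2, 11.4, 8.52 and 12.2 (1.21 ± 0.26, adjusted p = 0.00294). Both of these genes fell in clone 1.1 of the same line. IRF1 rose to 30.9, 22.6 and 21.9 TPM (1.11, adjusted p = 0.0111).

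IRF7, the factor that drives interferon gene transcription, rose to 8.60, 8.44 and 7.87 TPM from 4.45, 2.69, 3.69 and 2.82 (1.09 ± 0.19, limma adjusted p = 0.000527). MX1 fell to 3.39, 2.14 and 4.79 TPM (−1.11 ± 0.30, adjusted p = 0.0135). Its highest clone library lay just under the lowest WT library, 4.87. IFI44 fell to 1.26, 1.89 and 1.09 TPM from 4.1, 2.75, 5.50 and 3.56 (−1.03 ± 0.30, adjusted p = 0.0189). In 7 genes every clone library was above WT and in 10 every one was below, where 13.8% and 23.1% of all genes were. The call of MX1 was lost without clone library 2 (−0.88), WT library 1 (−0.99) or WT library 4 (−0.96), and that of IFI44 without clone library 1 (−0.99), clone library 3 (−0.93) or WT library 3 (−0.89). That of IRF1 was lost without clone library 1 (0.96). The count of 6 was 3 without clone library 1, 1 with the mitochondrial share as a covariate and 0 within the libraries of over 7.5% mitochondrial share, where clone 4.1 keeps 1 library that is assumed to vary like the other groups.

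WM115 clone 4.2 had 3 of 32 genes called, all lower, 9.38% against 6.6% of all genes (4.08% lower). The median of the 32 was −0.49, against −0.10. OAS2 fell to 12.9, 6.94 and 9.22 TPM from 27.6, 24.0, 20.0 and 26.2 (log2 difference −1.28 ± 0.20, limma adjusted p = 0.000451). MX1 fell to 3.03, 2.94 and 4.09 TPM (−1.10, adjusted p = 0.0161), and IFITM2 was the third gene. The MX1 call was lost in 4 of the 7 fits that left out 1 library, those without clone library 1 (−1.05, adjusted p = 0.0549), clone library 2 (−1.04, adjusted p = 0.0676), WT library 1 (−0.98, adjusted p = 0.0521) or WT library 4 (−0.96, adjusted p = 0.0540). Median-of-ratios scaling also brought it just under the minimum difference, and the count ran from 2 to 5 over the 7 fits. MX1 was called lower in clones 1.1, 4.1 and 4.2, while in clone 1.2 it stood at 7.10 to 10.1 TPM and in clone 1.3 at 7.44 to 19.6. In 12 genes every clone library was below WT, where 20.7% of all genes were, and in 2, IRF7 and SAMD9, every one was above, where 11.5% were. Within the libraries of over 7.5% mitochondrial share OAS2 alone was called.

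Clones of one region were also set against each other. In WM115, clone 1.1 against clone 1.2 gave 15 of 32 genes, 46.9% against 11.8% of all genes (3.25% higher and 8.51% lower), with 14 lower in clone 1.1 and IFITM2 higher (2.38). SAMD9L showed the largest deficit, 0.088, 0.322, 0.084, 0.059 and 0.302 TPM in clone 1.1 against 4.54, 1.99 and 6.46 in clone 1.2 (−2.10 ± 0.23, limma adjusted p = 4.91e-06). IRF1 differed by −1.99, TRIM22 by −1.92, IFITM1 by −1.74, BST2 by −1.63 and MX1 by −1.55. IRF9, the DNA-binding subunit of the interferon complex, differed by −1.31, at 7.39 to 14.8 TPM against 19.9 to 45.7. PARP9 (−1.21), DTX3L (−1.19), SAMD9 (−1.18), IFI44 (−1.17), IFIT1 (−1.09) and ISG15 (−1.05) were also lower, and XAF1 was listed at 0 in clone 1.1. Library 3 of clone 1.2, which stands apart, decided 7 of these calls, and without it the count was 8, with 7 lower. Without it the difference was −1.06 for IFITM1 (adjusted p = 0.127), −0.88 for BST2 (adjusted p = 0.248) and −0.60 for IFIT1 (adjusted p = 0.129). ISG15 (−0.82), IRF9 (−0.94), XAF1 and PARP9 (−0.99) then fell short of the minimum difference. SAMD9L (−1.80), IRF1 (−1.71), TRIM22 (−1.61), MX1 (−1.39), DTX3L, IFI44, SAMD9 and IFITM2 (2.68) were still called. ISG15 also fell short without clone 1.1 library 3 (−0.99) or clone 1.2 library 1 (−0.98), and with median-of-ratios scaling ISG15 (−0.94) and IFIT1 (−0.99) did.

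Between the WM115 R4 clones, 3 of 32 genes differed, 9.38% against 2.63% of all genes (1.82% higher), all higher in clone 4.1. BST2 stood at 32.9, 24.6 and 36.6 TPM in clone 4.1 and at 8.73, 2.15 and 1.78 in clone 4.2 (2.86 ± 0.59, limma adjusted p = 0.00578). TRIM22 stood at 29.8, 21.3 and 35.4 TPM against 7.83, 4.57 and 8.23 (1.93, adjusted p = 0.000254). ISG15 stood at 19, 25.2 and 22.7 TPM against 8.74, 9.16 and 8.69 (1.23, adjusted p = 0.00112). The clones did not overlap in any of the 3. These genes were picked as called between the same libraries, so their separation adds no support. The share of all genes separated between these clones was not computed.

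**Figure D3:**
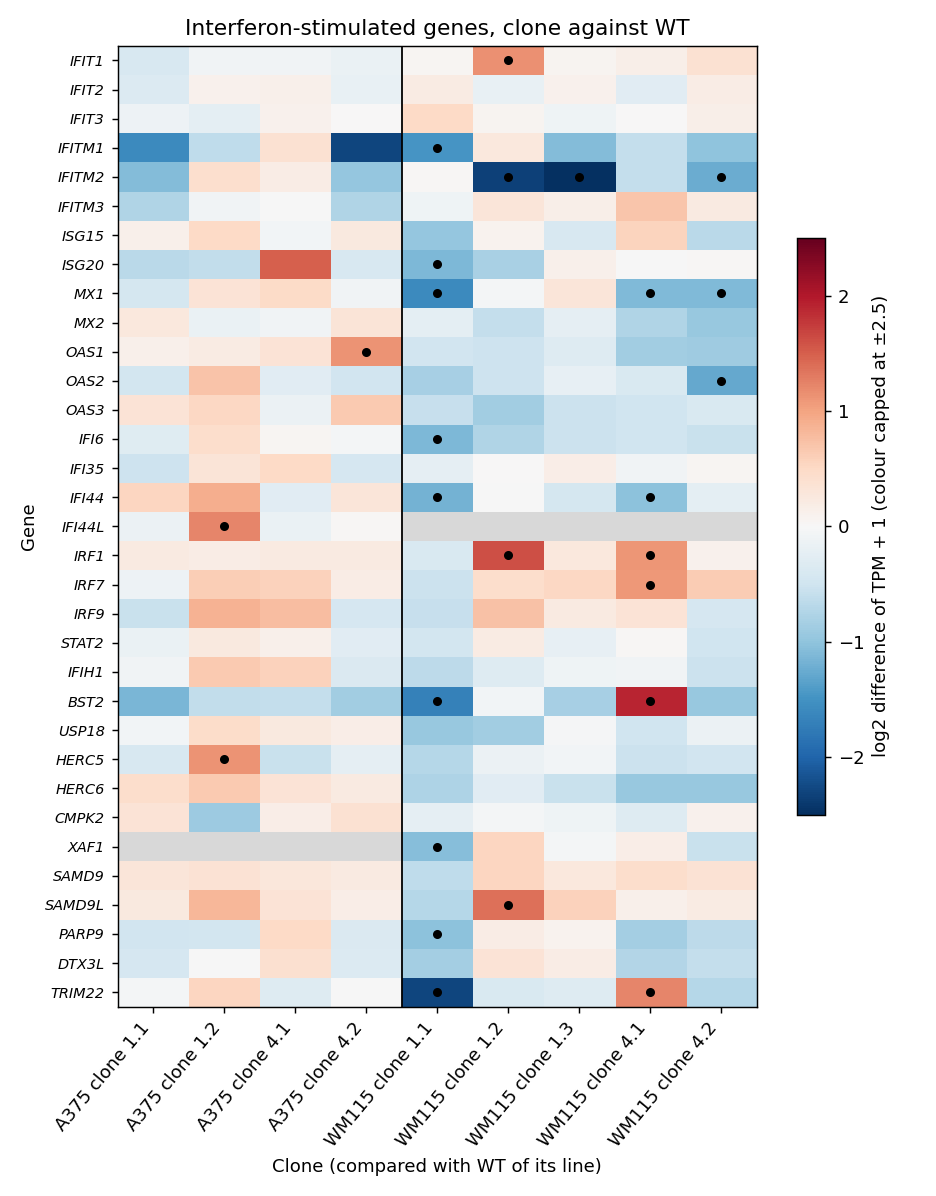
Log2 difference of each tested gene (rows) in each clone against WT of its line (columns), from blue (lower) to red (higher), with grey where a gene was not tested. Black dots mark the 26 differences called in the fits without a replicate block, 3 in A375 and 23 in WM115.

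In A375 few genes of the set were called against WT. Clone 1.2 had 2 of 32, both higher, where 4.01% of all genes were called and 2.57% were higher. One of them, IFI44L, reached the level for testing through this clone alone, so it was tested only because it was high there, and without it the count was 1 of 31, or 3.23%. IFI44L, a relative of IFI44, stood at 2.25, 1.13, 2.29 and 1.65 TPM, against 0.197, 0.351, 0.157 and 0.114 in WT. HERC5, the ligase that attaches ISG15 to new proteins, rose from 3.16, 2.32, 1.88 and 2.27 TPM to 5.70, 7.28, 5.92 and 6.42 (log2 difference 1.11 ± 0.19, limma adjusted p = 0.000950). Both groups were separate.

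In 9 genes all 4 libraries of A375 clone 1.2 were above all of WT, where 8.5% of all genes were, and the median of the 32 was 0.35 against 0.07. IFI44L is counted in both values. It was tested only because it was high in this clone, so its place above WT adds no support. Besides HERC5 and IFI44L the 9 genes were OAS2, IFI44, STAT2, IFIH1, HERC6, SAMD9 and SAMD9L. IFI44, the neighbour of IFI44L, stood at 17.3 to 23.9 TPM against 8.72 to 12.2 (0.91, limma adjusted p = 0.0260, below the minimum difference). SAMD9L stood at 3.57 to 4.42 TPM against 1.53 to 2.22 (0.83). CMPK2, a mitochondrial nucleotide kinase, lay below WT in all 4, at 0.583 to 1.65 TPM against 2.39 to 3.99 (−0.90), as 5.33% of all genes did. Within the A375 libraries of under 2.5% mitochondrial share, 2 of clone 1.2 and 3 of WT, no gene of the set was called and the median of the 30 tested was 0.31.

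A375 clone 4.2 had 1 of 32 genes called, 3.12% against 0.473% of all genes (0.108% higher). OAS1, another 2-5A synthetase, rose from 8.67, 6.24, 5.54 and 5.93 TPM in WT to 13.8, 15.6 and 16.7 (log2 difference 1.12 ± 0.16, limma adjusted p = 0.00109). It was the single gene of the set with every clone library above WT, as 3.49% of all genes were. Without library 1 of the clone it differed by 1.19. With only these groups fitted its adjusted p was 0.0689. OAS3 and OAS2 of the same cluster were not called.

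In A375 clone 1.1 limma called 0 of 32 genes, where 0.731% of all genes were called. At an unadjusted p below 0.05 there were 5 of 32, 15.6%, against 10.1% of all genes, among them IFITM2 (−1.08, adjusted p = 0.322) and IFITM3 (−0.75, adjusted p = 0.324). Library 1 of this clone had 1057 TPM of IFITM3 and the others 535 and 480.1, and the count without library 1 was also 0. OAS2 lay below WT and SAMD9 above it in all 3 libraries, where 4.71% and 2.7% of all genes did.

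In A375 clone 4.1 limma also called 0 of 32, where 0.653% of all genes were called. At an unadjusted p below 0.05 there were 6 of 32, 18.8%, against 10.5% of all genes. ISG20 stood at 430.5, 338, 507 and 252 TPM, against 161, 106, 217 and 78.3 in WT. Every clone library was above every WT library (log2 difference 1.49 ± 0.57, adjusted p = 0.301). Same-numbered libraries of this clone and WT deviated together, and with the replicate number as a block ISG20 was called (1.49 ± 0.09, adjusted p = 0.000781), 1 of 32 genes where 1.45% of all genes were. ISG20 also varied widely between libraries of the other clones, at 278, 52.4 and 36.2 TPM in clone 1.1 and 283, 67.1 and 50.4 in clone 4.2. MX1 and PARP9 were above WT in all 4 libraries of clone 4.1 and HERC5 below, where 3.86% and 3.27% of all genes were.

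**Figure D4:**
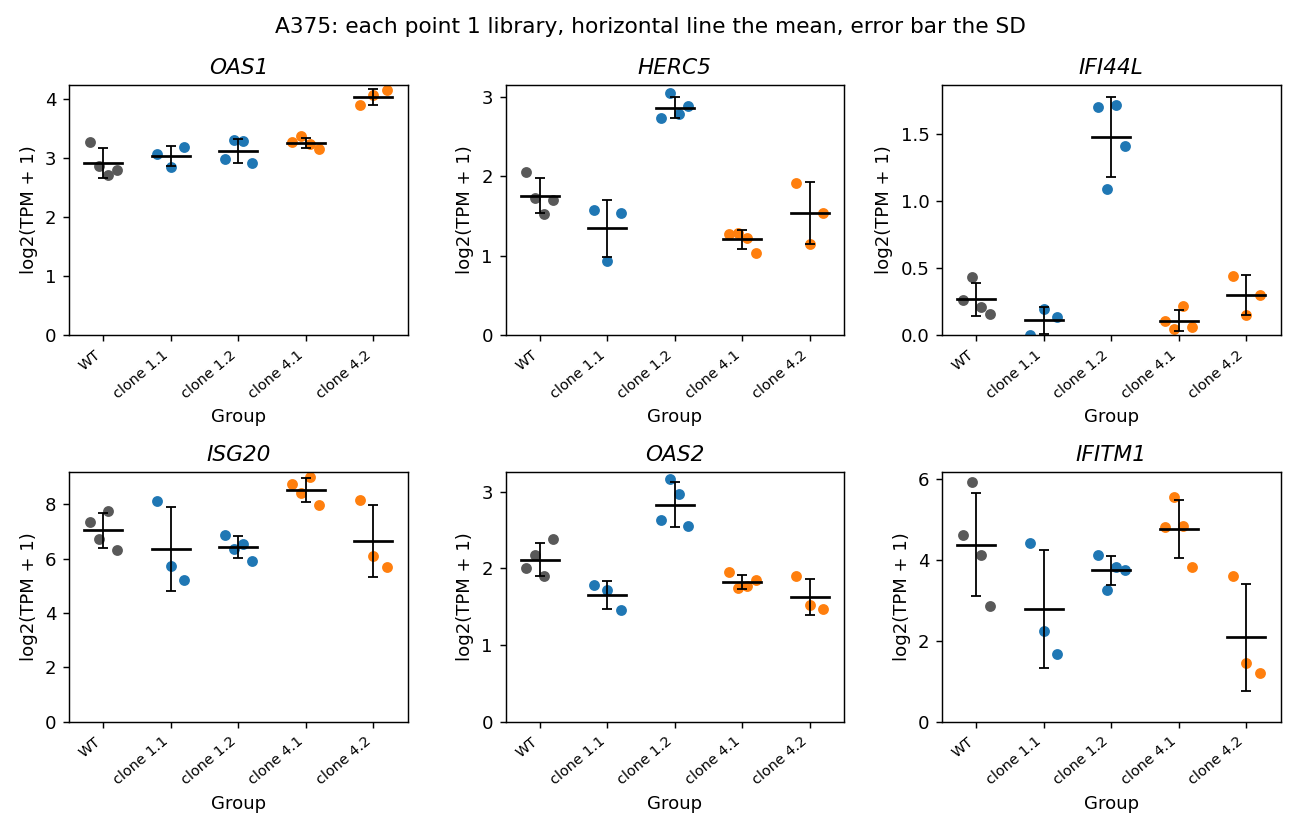
Levels of 6 genes in the A375 libraries, as log2(TPM + 1) on the vertical axis, by group on the horizontal axis (WT grey, R1 clones blue, R4 clones orange), with means and SD. OAS1 is high in clone 4.2, HERC5, IFI44L and OAS2 in clone 1.2 and ISG20 in clone 4.1, while ISG20 and IFITM1 vary widely among libraries of clones 1.1 and 4.2.

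Between the A375 R1 clones 6 of 32 genes differed, 18.8% against 6.16% of all genes (1.47% higher and 4.68% lower). Lower in clone 1.1 were HERC5 (1.97, 0.906 and 1.91 TPM against 5.70, 7.28, 5.92 and 6.42, log2 difference −1.52, limma adjusted p = 9.15e-05), IFITM2 (−1.50), IRF9 (−1.43), IFI44L (−1.37) and OAS2 (−1.18). Without IFI44L, which was tested through clone 1.2 alone, the count was 5 of 31, or 16.1%. The calls of IFITM2 and IRF9 did not hold when any 1 of several libraries was left out. That of IRF9 was lost without clone 1.1 library 2 or 3 or clone 1.2 library 1, 3 or 4 (−1.01 to −1.47) and that of IFITM2 without clone 1.1 library 2 or 3 or clone 1.2 library 1 or 4 (−1.23 to −1.50). With median-of-ratios scaling IRF9 had an adjusted p of 0.0589. CMPK2 was higher (3.67, 4.60 and 4.23 TPM against 1.06, 1.65, 0.583 and 1.62, 1.24, adjusted p = 0.00193). Without library 1 of clone 1.1 the count was 8. Within the libraries of under 2.5% mitochondrial share it was 1.

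Between the A375 R4 clones IFITM1 alone differed, 1 of 32 or 3.12%, against 2.23% of all genes (1.28% higher). It stood at 27.2, 45.9, 27.5 and 13.0 TPM in clone 4.1 and at 11.2, 1.75 and 1.3 in clone 4.2 (2.66 ± 0.72, limma adjusted p = 0.0471). The call was lost in 5 of the 7 fits that left out 1 library, and without library 1 of clone 4.2 the count was 7. Among genes at 0.5 TPM or more in every library of a group, BST2 (15.5-fold) and IFITM1 (9.51-fold) spanned the widest ranges, both in A375 WT. Clones of this line came close, with BST2 at 15.1-fold in clone 4.2 and IFITM1 at 9.42-fold in clone 1.1 and 8.63-fold in clone 4.2. In A375 WT IFITM1 ran from 6.27 to 59.7 TPM and BST2 from 1.07 to 16.6. The WT libraries lowest and highest in both genes were also lowest and highest in ribosomal protein share among the WT libraries, 18.9% and 27.3%. The part of that share was not tested.

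**Figure D5:**
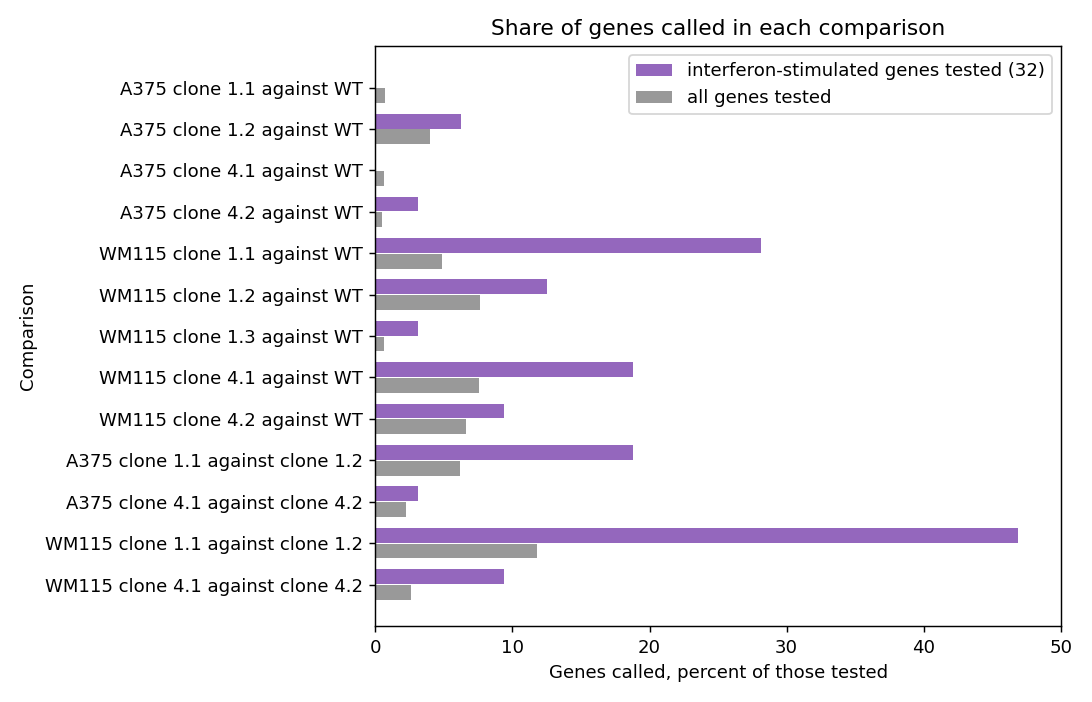
Share of the 32 tested genes called in each comparison (purple) beside the share of all tested genes (grey), in percent on the horizontal axis. WM115 clone 1.1 reaches 28.1% against WT and 46.9% against clone 1.2, where all genes reach 4.88% and 11.8%.

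In A375, 3 of 32 genes were called against WT in at least 1 clone, 9.38% against 4.97% of all genes, one of the 3 being IFI44L. In WM115 the number was 15 of 32, 46.9% against 17.9% of all genes. Of the 31 genes of the set tested in both lines, 0 were called in clones of both, where 2.37% of all genes were. These counts come from the fits without a replicate block. With the block ISG20 was called higher in A375 clone 4.1 (limma log2 difference 1.49, adjusted p = 0.000781). ISG20 was also called lower in WM115 clone 1.1 (−1.13), so with the block it is called in clones of both lines. The matching shares of all genes with the block were not computed. BST2 and TRIM22 were called higher in 1 WM115 clone and lower in another. Of these 31 genes 15 were called in no clone, 48.4% against 81.9% of all genes, among them IFIT2, IFIT3, IFITM3, ISG15, MX2, OAS3, STAT2 and IFIH1. The clones of a line share their WT libraries, so calls in different clones of a line are not independent.

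With the clone as the unit, the 4 R1 clones were compared with the 4 R4 clones of both lines, clone 1.3 left out. Limma called 0 of 31 genes of the set and 0% of all 15287 genes tested. At an unadjusted p below 0.05 there were 1 gene of the set, ISG20, lower in R1 clones (log2 difference −1.09 ± 0.35, adjusted p = 0.996), and 658 genes in all.

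Genes of interferon signalling, some of them also in the set, were counted by list. The 9 interferon ligand genes listed did not exceed 0.61 TPM in any library. Of the 15 ligand and receptor genes 6 were tested in each line, and in no clone of A375 was one called. IFNAR1 and IFNAR2, which form the type I receptor, were called in no clone, with differences of 0.51 and 0.53 in WM115 clone 4.1 (limma adjusted p = 0.0151 and 0.00664). IFNGR2, a chain of the type II receptor, rose in WM115 clones 4.1 (166 to 219 TPM against 70.1 to 88.5, log2 difference 1.22) and 4.2 (1.12). It was the 1 gene of the 6 called there, 16.7% against 7.57% and 6.6% of all genes. JAK1, a kinase that the receptors activate, was called in no clone.

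Of 14 signal transduction genes, 12 were tested in A375 and 13 in WM115, IRF9 and ISG15 of the set among them. SOCS1, an inhibitor of JAK kinases, rose in WM115 clone 1.2 (1.58) and SOCS3, another inhibitor, in clone 4.1 (1.24), and no other was called against WT. That is 1 of 13 in each, 7.69%, beside 7.61% and 7.57% of all genes. Of 19 nucleic acid sensing genes, 17 and 18 were tested, IRF7 and IFIH1 of the set among them. AIM2, a DNA sensor, rose in WM115 clone 4.2 (1.06) and fell in A375 clone 1.2 (−1.70). STING1, the adaptor of the cytosolic DNA pathway, fell in WM115 clone 1.2 (−1.30), the nucleotide hydrolase SAMHD1 in clone 4.2 (−1.17) and the DNA sensor IFI16 in A375 clone 1.1 (−1.10). No clone had more than 2 of this list called, the highest share being 11.1% in WM115 clone 4.2, beside 6.6% of all genes.

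Of 37 other interferon-induced genes, 32 were tested in WM115. In clone 1.1 limma called 5 of them, 15.6%, against 4.88% of all genes, all lower (3.66% of all genes): UBA7 (−1.69), the scramblase gene PLSCR1 (−1.41), the guanylate-binding proteins GBP2 (−1.26) and GBP4 (−1.18), and UBE2L6 (−1.0). UBA7 and UBE2L6 encode the activating and conjugating enzymes for ISG15. UBA7 stood at 3.94 to 10.7 TPM in WM115 clone 1.1 against 17.7 to 32.2 in WT, and also fell in clones 4.1 (−1.61) and 4.2 (−1.38), while it rose in A375 clone 1.2 (1.38). In clone 4.2 the call was also made for GBP4 and for NLRC5, the activator of MHC class I genes, both lower (NLRC5 −1.60), which with UBA7 made 3 of 32, 9.38% against 6.6% of all genes. In clone 4.1 UBA7 was the 1 gene called, 3.12% against 7.57% of all genes. WM115 clones 1.2 and 1.3 had 0 of 32, where 7.61% and 0.618% of all genes were called. In A375, where 30 were tested, UBA7 in clone 1.2 was the only call, 3.33% against 4.01% of all genes.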

How the data were processed

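The authors deposited gene-level and transcript-level TPM. Per the submitters' processing notes DRAGEN and the genome build GRCh38 were used; the annotation release and any strand setting are not given in the sources used here. Repeated lines (200) were used once, and 6 columns that match no sample were not used. Per the labels' protocols polyadenylated RNA was primed with random hexamers. TPM keep no read depth, so depth is unknown and no counting interval was computed, and TPM are relative within a library.

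Differences were fitted on log2(TPM + 1) with limma 3.58.1 (R 4.3.3), trend on, over all groups of a line, for genes with at least 1 TPM in at least 3 libraries. Calls needed a Benjamini-Hochberg adjusted p below 0.05 and a log2 difference of at least 1. The 32 genes tested passed a filter on level, so counts are of those. The labels do not say that libraries came from separate cultures, so p-values measure the spread between libraries of a clone, which may be technical.

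The genes, the pathway lists and the marker lists were chosen with earlier results of these data known. Up to 3 called genes per direction and clone are given library by library; list genes named were called in a clone, and JAK1, IFNAR1 and IFNAR2 are named in any case; some list genes are not reported here. Same-numbered libraries of A375 clone 4.1 and WT deviated together (correlations of their deviations 0.33 to 0.78), so a replicate block was fitted there; in no other comparison were all pairs over 0.1. Alternatives were another pseudocount, no filter, median-of-ratios scaling, other fits, a mitochondrial covariate, no minimum difference and each library left out. Motif counts use RefSeq promoters, matched by symbol for 30 of 38 genes, and gene positions use GENCODE 29. Transcript TPM summed to the gene TPM within 0.01 for all 38.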

Additional observations from a re-analysis of the deposited data

Results flagged for a closer look

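Among 159 sets of values, 1 for each tested gene in each group of 4 or 5 libraries, 9 held a library far from the others; chance gives about 1 in 20. In A375 clone 4.1, library 2 was the highest in MX1 (7.63 TPM), IRF7 (14.6 TPM) and DTX3L (24.5 TPM), and library 4 was the lowest in IFI44 (5.65 TPM) and IRF9 (8.66 TPM). In A375 clone 1.2, library 4 was the highest in DTX3L (15.7 TPM). In WM115 WT, library 3 was the lowest in HERC5 (2.01 TPM). In WM115 clone 1.1, library 1 was the highest in MX1 (3.02 TPM) and library 3 in USP18 (2.71 TPM).

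Another 25 results differ between clones of the same line and region by limma's test of the difference itself. For A375 clone 1.1 against clone 1.2 the log2 differences were −1.50 for IFITM2, −1.18 for OAS2, −1.37 for IFI44L (tested through clone 1.2 alone), −1.43 for IRF9, −1.52 for HERC5 and 1.24 for CMPK2. For A375 clone 4.1 against clone 4.2 it was 2.66 for IFITM1. For WM115 clone 4.1 against clone 4.2 they were 1.23 for ISG15, 2.86 for BST2 and 1.93 for TRIM22. For WM115 clone 1.1 against clone 1.2 they were −1.09 for IFIT1, −1.74 for IFITM1, 2.38 for IFITM2, −1.05 for ISG15, −1.55 for MX1, −1.17 for IFI44, −1.99 for IRF1 and −1.31 for IRF9. The same comparison gave −1.63 for BST2, −1.18 for SAMD9, −2.10 for SAMD9L, −1.21 for PARP9, −1.19 for DTX3L and −1.92 for TRIM22. XAF1 gave −1.59 on the log2(TPM + 1) scale, with clone 1.1 listed at 0. Without library 3 of clone 1.2 the calls of IFIT1 (−0.60, adjusted p = 0.129), IFITM1 (−1.06, adjusted p = 0.127), BST2 (−0.88, adjusted p = 0.248), ISG15 (−0.82), IRF9 (−0.94), PARP9 (−0.99) and XAF1 (−0.97) were lost.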

How the results depend on the processing

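The 60 called differences of single genes kept their direction under every alternative run, except IFIT3 between the WT lines with the mitochondrial share as a covariate (0.24; line and share are confounded). Counts of genes called moved as follows, and the share of all genes called under an alternative was computed only where it is given. With a pseudocount of 0.1, A375 clone 1.2 gave 4 and WM115 clone 1.1 gave 14. With no minimum difference the count was 6 in A375 clone 1.2 (IFI44L among them), where 8.53% of all genes were called. In WM115 it was 21 in clone 1.1 (22% of all genes) and 10 in clone 1.2 (22.6%). It was 14 in WM115 clone 4.1 (24.2% of all genes) and 10 in clone 4.2 (20.3%). It was 2 between the A375 R4 clones and 17 between the WT lines, where the share of all genes was not computed. At an unadjusted limma p below 0.05 there were 19 of 32 between the WT lines, 59.4% against 54.9% of all genes. Between the A375 R4 clones there were 14 of 32, 43.8% against 22.3% of all genes. With the mitochondrial covariate they were 1 in WM115 clone 4.1, 0 between the A375 R4 clones and 3 between the WT lines. Without a filter the A375 R4 clones gave 0, and with only the compared groups fitted A375 clone 4.2 gave 0. Median-of-ratios scaling brought the median of all genes in WM115 clone 1.1 from −0.12 to −0.0023, lost the calls of ISG20, IFI6 and PARP9 in WM115 clone 1.1 (6 called), and in WM115 clone 4.1 left 4 higher and 0 lower in place of 4 and 2. Leaving out 1 library at a time gave 5 to 10 in WM115 clone 1.1, 3 to 6 in WM115 clone 1.2, 3 to 6 in WM115 clone 4.1, 2 to 5 in WM115 clone 4.2, 0 to 7 between the A375 R4 clones, 4 to 8 between the A375 R1 clones, 8 to 16 between the WM115 R1 clones, 3 to 4 between the WM115 R4 clones and 8 to 11 between the WT lines.

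Within libraries of one range of mitochondrial share, an alternative added after the data were seen, the counts were 0 in A375 clones 1.2 and 4.2, 1 between the A375 R1 clones, 0 between the A375 R4 clones, 5 in WM115 clone 1.1, 0 in WM115 clone 4.1, 1 in WM115 clone 4.2 and 0 between the WM115 R4 clones. With the replicate block and only the compared groups fitted, the counts were 1 in A375 clone 1.2, 1 in A375 clone 4.1, 0 in A375 clone 4.2, 0 in WM115 clones 1.2 and 1.3, 1 in WM115 clone 4.1, 1 between the A375 R1 clones, 0 between the A375 R4 clones and 0 between the WM115 R1 clones; outside A375 clone 4.1 the libraries share only a number, and fewer libraries enter this fit. Of the counts in this paragraph, only the block fit of A375 clone 4.1 has a computed share of all genes, 1.45%. Read depth is unknown, so genes near 1 TPM carry an unknown counting error.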
